A study of Homo sapiens with 32 samples.

Results

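The comparison described here is that of HepG2 cells exposed to citrate-coated silver nanoparticles for 12 h with cells of the same exposure at 6 h. Its members are 5 of the 32 libraries of the series, 2 at 6 h (replicates A and C) and 3 at 12 h (replicates A, B and C), taken by their labelled exposure and time, with no measured value used in the choice. HepG2 is an established cell line that grew from a hepatocellular carcinoma and keeps many liver functions. Both groups were given silver particles at 1.2 ug/mL with citrate on the surface, and they differed in the labelled time after dosing. Libraries of cells given medium only (NoNP, no particles) at 6 h (n = 3) and 12 h (n = 3), and of cells given 1.2 ug/mL of silver particles coated with polyethylene glycol (PEG) at 6 h (n = 2) and 12 h (n = 3), were used to set the citrate time step beside the time step of other cells. No treatment other than particles or medium is named in the labels. They do not say whether the replicates were cultured apart. Unless stated otherwise, the p-values and SEs below rest on a spread per gene pooled over the 12 exposure and time groups of all 32 libraries. Among these were groups at 24 h and groups given silver particles coated with branched polyethylenimine. The p-values accordingly measure only the spread between libraries within groups, which may be technical, and not that of the compared libraries alone.

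Silver particles release silver ions, which bind thiols and displace other metals. Cells are known to answer with metallothioneins and other metal-binding or metal-exporting proteins, with the NRF2 antioxidant program, with heat shock factor 1 (HSF1) chaperone genes when proteins misfold, and with the integrated stress response, in which ATF4 is translated while bulk translation slows. HepG2 cells also keep a liver secretory program, in which albumin, apolipoproteins, clotting factors and acute phase proteins make up much of the output, under transcription factors such as HNF4A, FOXA1, CEBPA and CEBPB. A time step in culture carries changes of its own, from serum factors, glucose use, cell contact and feeding, and these can be read in cells given medium only.

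The assay was TempO-Seq, a targeted method: neighbouring detector probes that find the same RNA are joined, and the joined probes are amplified and counted. The values below are normalized reads per gene as deposited. The 5 citrate libraries held 1775085 and 3366765 reads at 6 h and 3799287, 3450278 and 2566428 reads at 12 h. A gene with no read may therefore have had up to 5.25 normalized reads in the shallowest library (6 h replicate A) and up to 2.34 in the deepest (12 h replicate A), counting error alone. Spearman correlations across genes were 0.942 between the 6 h libraries, 0.928 to 0.947 among the 12 h libraries and 0.891 to 0.922 between times. Of 13 hepatoma markers all were in the table, and their summed level was 334511 to 352526 at 6 h and 194790 to 209461 at 12 h. The hepatocyte results below should be read beside that sum, most of which is albumin. Of 10 fibroblast or stellate markers 6 were in the table, with COL1A2 at 0, of 8 endothelial markers 2 and of 10 leukocyte markers 7. Their summed levels at 6 h and 12 h were 178 to 203 and 327 to 443, 8.76 to 13.9 and 6.24 to 16.6, and 2707 to 3208 and 2502 to 3064. LYZ, which codes for lysozyme, made up most of the leukocyte sum, at 2841 ± 361 (SD, n = 2) and 2629 ± 320 (SD, n = 3). PDGFRB and ACTA2 were the fibroblast markers that differed between times, and in opposite directions. PDGFRB, a receptor of platelet-derived growth factor, rose from 91.1 and 45.5 to 287, 411 and 288 normalized reads, and ACTA2, a smooth muscle actin, fell from 109 and 133 to 32, 29.7 and 27.6 (limma adjusted p = 8.09e-05 and 0.00258). The ACTA2 call was lost without 6 h replicate C (adjusted p = 0.068). The part of other cells in these results was not tested. In lysates of whole cultures, fewer cells of a kind and less RNA per cell cannot be told apart.

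Between 6 h and 12 h, citrate-exposed cells lowered transcripts of 11 members of an acute phase list and 12 of a list of other secreted liver proteins. They also lowered the metallothioneins MT1G and MT1M, 8 antioxidant and 7 stress response genes, and the cytoskeletal and adhesion genes CTGF, THBS1, TGFBI, VCL and TPM4. They raised a more scattered set that included IGFBP1, NDRG4, ZNF114, AREG, NRP1, ESAM, TIMP1 and the lysosomal gene CTSB. Across the 9324 genes with a mean of at least 5 normalized reads over the 32 libraries, limma called 474 genes at an adjusted p under 0.05 (5.08%), 228 higher at 12 h (2.45%) and 246 lower (2.64%). The counts of list members below should be read beside these shares. At an unadjusted p under 0.05 there were 1712 genes (18.4%). Libraries of the times did not overlap in 3554 genes (38.1%), and in all 474 called genes. A lack of overlap stated below for a called gene is therefore no further evidence. edgeR on the recovered reads called 473 genes, of which 420 were among the 474. The balance of directions moved with the scaling and the weights. With equal library totals 305 genes were higher and 208 lower, and with voom weights 176 were higher and 330 lower. The number of calls fell to 322 to 389 without 1 of the 12 h libraries, and further without a 6 h library. With 2 libraries at 6 h and 3 at 12 h, leaving 1 out widens the error more at 6 h. These counts therefore cannot show on which libraries the calls rest. Without replicate B of cells given particles coated with branched polyethylenimine (bPEI) at 6 h, and without the 24 h replicate B of NoNP (a pair of libraries of other groups, outlying in earlier results of these data), 1001 genes were called, all 474 among them.

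**Figure D1:**
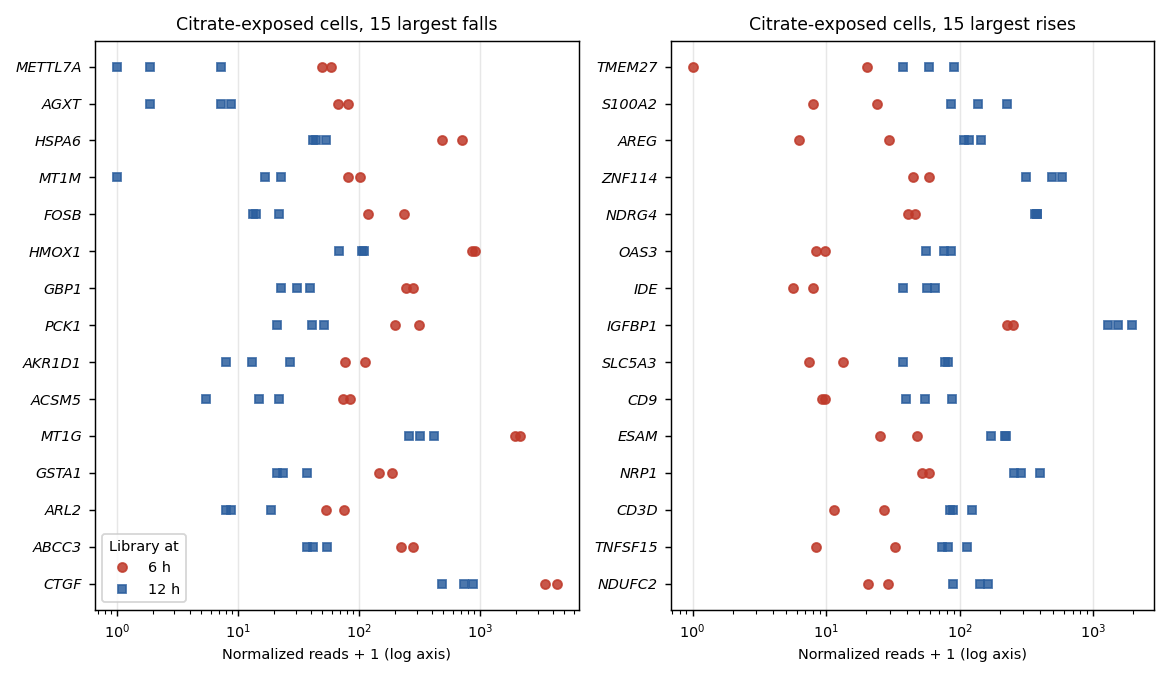
Normalized reads plus 1 on a log axis in each citrate library, with circles for the 2 libraries at 6 h and squares for the 3 libraries at 12 h, for the 15 largest falls (left) and the 15 largest rises (right) among called genes with a mean of at least 50 normalized reads in the higher group. No gene shown has overlapping times, which the choice of genes required, and the 6 h libraries lie further apart for AREG and TNFSF15 than for NDRG4 or IGFBP1.

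Of the heat shock genes, HSPA6 and HSPA1B fell, and no member of the list rose in the limma fit of all libraries. HSPA6 codes for an HSP70 chaperone that is nearly silent in unstressed cells, and HSPA1B for a main stress-inducible HSP70. HSPA6 had 485 and 709 normalized reads at 6 h and 52.2, 41.1 and 43.1 at 12 h. Both 6 h libraries were far above all 12 h libraries, and in NoNP the gene was at 8.95, 0 and 0.539 normalized reads at 6 h and at 0 in all 3 libraries at 12 h. The citrate fall was 13.1-fold, a log2 difference of -3.67 ± 1.05 (SE) with a limma adjusted p of 0.0338, and the PEG cells had a log2 difference of -3.20. HSPA1B went from 350 and 273 to 90.4, 123 and 82.8 normalized reads, a log2 difference of -1.66 ± 0.39 (SE, adjusted p = 0.00706). In NoNP, HSPA1B had 139 ± 14.9 (SD, n = 3) at 6 h and 95.1 ± 5.06 (SD, n = 3) at 12 h, so that the citrate libraries at 12 h lay close to the NoNP level. The promoters of both genes are shown because heat shock elements, the sites bound by HSF1, are the textbook feature of such genes. The letters searched, chosen after the values were seen, were GAANNTTC and TTCNNGAA, each the core of facing HSF1 units and its own reverse complement. The 200 bases before the gene start are given from the RefSeq promoter table (GRCh38.p14), with matches in capitals, for HSPA6 at chr1:161524340-161524539 on the + strand and HSPA1B at chr6:31827538-31827737 on the + strand.
HSPA6: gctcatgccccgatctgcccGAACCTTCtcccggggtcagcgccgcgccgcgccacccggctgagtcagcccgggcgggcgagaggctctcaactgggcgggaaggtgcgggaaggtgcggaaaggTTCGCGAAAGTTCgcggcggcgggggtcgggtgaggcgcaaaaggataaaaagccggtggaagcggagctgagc
HSPA1B: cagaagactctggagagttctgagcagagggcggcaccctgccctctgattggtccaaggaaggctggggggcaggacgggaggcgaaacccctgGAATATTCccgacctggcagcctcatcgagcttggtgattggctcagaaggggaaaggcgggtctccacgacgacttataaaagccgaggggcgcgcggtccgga
HSPA6 held 3 matches, starting 180, 74 and 69 bases before the gene start, of which the last overlap. HSPA1B held 1, starting 105 bases before it. Over windows of 250 bases before the start, 11.6% of 35116 promoters in the table held such a match, as did 13 of the 21 list members with an entry, including both called members. A match is a description of letters and not a measured site.

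The heat shock list as a whole held 23 tested members, of which 2 fell and 21 were not called, and its median log2 difference was -0.22 against 0.014 over all genes. With equal library totals, the replicate block, only the groups compared or 1 variance weight per group, 2 members fell and 1 rose. Abundant chaperones were not called. HSP90AA1, a cytosolic HSP90, had 5408 ± 14.6 (SD, n = 2) and 5657 ± 218 (SD, n = 3) normalized reads. BAG3, a co-chaperone, had 221 ± 14.6 and 112 ± 18.1, and FKBP4, a partner of HSP90, 117 and 177 at 6 h and 78.7, 88.2 and 97.1 at 12 h, with adjusted p-values of 0.124 and 0.343. HSPH1, an HSP110 exchange factor, had 2103 ± 218 and 3067 ± 180 (adjusted p = 0.23). HSPA6 passed in every alternative that kept all 5 citrate libraries. Its limma adjusted p was 5.46e-06 with only the groups compared, 5.94e-07 with voom weights and 0.0444 with a mean of at least 20. By edgeR it was 0.00714, so its size depends on how the spread is estimated. The HSPA6 call was lost without any 1 of the 5 citrate libraries (adjusted p = 0.13 and 0.29 without 6 h replicates A and C, and 0.061, 0.085 and 0.09 without 12 h replicates A, B and C), and the HSPA1B call without 6 h replicate A (0.11).

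Among immediate early genes, the transcription factors that switch on within minutes of a stimulus, FOSB and MAFF fell and 19 of 21 members were not called, with a list median of -0.35. FOSB, a partner of JUN in AP-1, had 119 and 236 normalized reads at 6 h and 12.5, 13.1 and 21 at 12 h, an 11.4-fold fall (limma adjusted p = 0.0187). MAFF, a small MAF protein, had 391 and 592 and then 111, 143 and 157 (adjusted p = 0.00359). In both genes replicate C was the higher 6 h library and the times did not overlap. NoNP cells had 18.5 ± 9.75 and 9.06 ± 2.88 for FOSB and 104 ± 31.4 and 38.2 ± 5.6 for MAFF (SD, n = 3 each), so citrate libraries lay above them at 6 h. MYC, IER2 and KLF6 were not called, at 1718 ± 129 and 1354 ± 176, 493 ± 28.3 and 301 ± 41.3, and 294 ± 103 and 125 ± 34.6. None of the 11 feedback inhibitors of ERK signalling was called. FOSB missed the threshold without 6 h replicate A or C (0.061 and 0.28) and without 12 h replicate A or B (0.053 and 0.057), and MAFF without 6 h replicate C (0.14).

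In the integrated stress response list 7 of the 28 tested members fell between the times and none rose, with a median log2 difference of -0.49. With only the groups compared, 6 fell and 1 rose. The 7 that fell were PCK2, PPP1R15A, ATF4, MTHFD2, CEBPB, NUPR1 and SLC7A5. PPP1R15A (GADD34), the phosphatase subunit that ends the response, had 1399 and 1909 normalized reads at 6 h and 532, 731 and 655 at 12 h, a log2 difference of -1.37 ± 0.30 (SE, limma adjusted p = 0.0043). ATF4 itself, the central transcription factor, had 2587 and 1618 and then 1053, 1074 and 644 (adjusted p = 0.00529). The 6 h libraries lay well apart in both genes and still above all 12 h libraries. PCK2, the mitochondrial carboxykinase, had 405 and 450 and then 99.8, 161 and 148, a 3.14-fold fall (adjusted p = 0.000318). MTHFD2, a mitochondrial folate enzyme, was at 1031 ± 136 and 536 ± 45.4, and NUPR1, a stress-induced chromatin protein, at 101 ± 27.1 and 23.2 ± 8.0. DDIT3 (CHOP), a later effector, was not called, at 156 ± 61.8 and 208 ± 41.7. NoNP cells had 437 ± 145 and 215 ± 41.8 for PPP1R15A and 365 ± 17.5 and 124 ± 24.7 for PCK2, and 8 members of the list were lower at 12 h in NoNP. PCK2 kept its call with each citrate library left out. PPP1R15A, MTHFD2, CEBPB, NUPR1 and SLC7A5 lost theirs without 6 h replicate C (0.15, 0.22, 0.14, 0.3 and 0.28), ATF4, CEBPB, NUPR1 and SLC7A5 without 6 h replicate A (0.19, 0.085, 0.081 and 0.17), ATF4, CEBPB and SLC7A5 without 12 h replicate C (0.051, 0.057 and 0.15), NUPR1 and SLC7A5 without 12 h replicate B (0.12 and 0.061), and SLC7A5 also without 12 h replicate A (0.079) and by edgeR (0.052). The 7 falls of the list thus became 2 without 6 h replicate C, 3 without 6 h replicate A and 4 without 12 h replicate C.

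Within the unfolded protein response of the endoplasmic reticulum, HSP90B1 (GRP94) and HERPUD1 fell and 18 of 20 members were not called, where 2.64% of all genes fell. HSP90B1, a chaperone of the reticulum, had 1392 and 1733 normalized reads at 6 h and 707, 785 and 847 at 12 h (limma adjusted p = 0.0108). HERPUD1, which serves degradation at the reticulum membrane, had 89.3 and 114 and then 45.2, 35.8 and 19.9 (adjusted p = 0.0281). HSPA5 (BiP), the most abundant chaperone there, had 4718 and 4309 and then 3579, 3525 and 2277 and was not called (adjusted p = 0.193). No p53 target of 24 was called. Without 6 h replicate C the adjusted p was 0.22 for HSP90B1 and 0.28 for HERPUD1, which was also lost without 6 h replicate A (0.093) and without 12 h replicates B and C (0.051 and 0.15).

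Acute phase proteins, which the liver secretes in inflammation under IL-6, STAT3 and CEBPB, fell together. Of 21 tested members 11 fell, 0 rose and 10 were not called, with a median log2 difference of -1.28. The list members that fell were FGG, FGB, HP, SERPINA3, CFB, C3, LEAP2, ORM1, ORM2, A2M and HPX. The list was drawn broadly, and LEAP2 and A2M are not classic acute phase proteins in humans. FGG, the fibrinogen gamma chain, had 8884 and 9201 normalized reads at 6 h and 2216, 2114 and 2066 at 12 h, a 4.24-fold fall with a log2 difference of -2.08 ± 0.18 (SE, limma adjusted p = 1.95e-09). FGB, the beta chain, had 3620 and 3538 and then 1079, 934 and 946, a 3.63-fold fall (adjusted p = 3.63e-07). The fibrinogen chains thus had libraries of a time within a narrow range and times far apart. HP, haptoglobin, which binds free haemoglobin, had 2173 and 2391 and then 624, 604 and 536 (adjusted p = 4.29e-08). SERPINA3, a protease inhibitor, had 480 and 474 and then 114, 121 and 130 (adjusted p = 2.46e-05). The complement genes C3 and CFB fell by smaller folds, from 2356 ± 460 to 949 ± 165 and from 1225 ± 41.2 to 504 ± 14.3. LEAP2, a secreted peptide that blocks the ghrelin receptor, had 278 in both 6 h libraries and 60, 85.6 and 51.9 at 12 h. ICAM1, an adhesion molecule induced by NF-kB, also fell, from 182 and 289 to 88.1, 64.7 and 83.9 (adjusted p = 0.00404). It was the only member called of 18 in the list of NF-kB feedback genes and chemokines, where 5.08% of all genes were called.

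Acute phase genes also fell in NoNP cells, where 12 members were lower at 12 h and the list median was -0.91. FGG had 11096 ± 1113 and 2975 ± 175 (SD, n = 3 each) in NoNP, FGB 3618 ± 392 and 1176 ± 80.8, and HP 2475 ± 199 and 669 ± 104. The difference of the steps was -0.19 ± 0.24 (SE) in log2 for FGG, -0.24 ± 0.27 for FGB and -0.06 ± 0.26 for HP (adjusted p = 0.993 each). FGG, FGB, HP, SERPINA3, C3, CFB and LEAP2 kept their calls with each citrate library left out in turn. ORM1, ORM2 and HPX lost theirs without 6 h replicate C (0.27, 0.096 and 0.26), ORM1, A2M and HPX without 6 h replicate A (0.061, 0.17 and 0.13), ORM1 also without 12 h replicates A and C (0.052 and 0.088), HPX without 12 h replicates B and C (0.11 and 0.18), and ICAM1 without 6 h replicate C (0.18). HPX was not called by edgeR (0.078).

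The fibrinogen promoters are shown because the IL-6 response element CTGGGAA, bound by STAT3, is a known feature of acute phase genes and because FGG and FGB moved together. The letters were chosen after the values were seen and were searched on both strands. The 200 bases before the gene start come from the RefSeq promoter table (GRCh38.p14), for FGG at chr4:154612657-154612856 on the - strand and FGB at chr4:154562780-154562979 on the + strand, where the first of 2 starts in the table was used.
FGG: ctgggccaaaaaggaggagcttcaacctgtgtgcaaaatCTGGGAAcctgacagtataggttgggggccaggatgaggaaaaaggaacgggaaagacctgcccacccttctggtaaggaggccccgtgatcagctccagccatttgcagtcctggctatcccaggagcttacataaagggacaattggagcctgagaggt
FGB: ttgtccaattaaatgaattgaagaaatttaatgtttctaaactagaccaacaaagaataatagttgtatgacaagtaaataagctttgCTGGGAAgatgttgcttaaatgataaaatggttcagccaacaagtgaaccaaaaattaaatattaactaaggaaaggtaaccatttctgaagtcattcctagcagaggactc
The match in capitals starts 161 bases before the FGG start and 112 bases before the FGB start. Over windows of 250 bases, 9.15% of the 35116 promoters held CTGGGAA on either strand, as did 4 of the 16 acute phase members with an entry (FGB, FGG, HPX and ITIH4). Of the 7 called members with an entry 3 held it.

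Other proteins that hepatocytes secrete fell as well, 12 of 41 tested members with 0 rising and a median of -1.05. APOC3, an apolipoprotein of triglyceride-rich particles, had 4755 and 4306 normalized reads at 6 h and 1245, 1266 and 976 at 12 h (limma adjusted p = 3.34e-06). APOA1, the main protein of HDL, had 34871 and 45756 and then 16089, 12509 and 11117 (adjusted p = 0.00237). ALB, albumin, had 224414 and 196811 and then 128683, 119845 and 117935, a 1.72-fold fall (adjusted p = 0.00579). For each of these the lower 6 h library was above the highest 12 h library. RBP4, the retinol carrier, went from 1782 ± 185 to 740 ± 78, AHSG, fetuin A, from 24659 ± 1622 to 9943 ± 2055, and AGT, angiotensinogen, from 1624 ± 97.4 to 513 ± 164. C4B, complement C4, went from 117 and 167 to 27.3, 19.2 and 34.2. The liver secretory markers were not lowered alike, since AFP had 4689 ± 1510 and 3976 ± 394 normalized reads, TTR 2147 ± 473 and 1690 ± 210, and SERPINA1 12866 ± 2103 and 9305 ± 993, none of them called. Of the hepatoma markers, 4 of 13 fell (FGB, APOA1, ALB and APOB). NoNP cells had 250780 ± 16534 and 213596 ± 6994 for ALB and 4889 ± 238 and 1649 ± 172 for APOC3, and 12 members of the list were lower at 12 h there. APOA1 and C4B were not called without 6 h replicate C (0.075 and 0.062), nor ALB and AHSG without 6 h replicate A (0.11 and 0.059), nor APOB without 6 h replicate A or C (0.059 and 0.2) or 12 h replicate A or B (0.088 and 0.065), nor C4A without 6 h replicate A or C (0.108 and 0.328) or 12 h replicate A or C (0.0734 and 0.171). The count of 12 falls in the list became 6 without 6 h replicate A and 6 without 6 h replicate C, and that of 4 hepatoma markers became 2 in each case. ALB had an adjusted p of 1 after quantile normalization, which sets the most abundant gene of every library to 1 value.

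Among liver transcription factors FOXA1, CEBPA and CEBPB fell and 15 of 18 were not called. FOXA1, a pioneer factor of liver chromatin, had 911 and 1068 normalized reads at 6 h and 461, 398 and 381 at 12 h (limma adjusted p = 0.000388). CEBPA, a factor of hepatocyte maturity, had 235 and 314 and then 60, 73.4 and 89.4 (adjusted p = 0.0028). CEBPB, which acts in both the acute phase and the stress response, had 848 and 885 and then 305, 320 and 255 (adjusted p = 0.0124). All 3 had 6 h libraries above every 12 h library, and NoNP cells had 825 ± 124 and 360 ± 18.4 for FOXA1, 207 ± 31.7 and 49 ± 6.85 for CEBPA and 433 ± 87.2 and 122 ± 44.2 for CEBPB (SD, n = 3 each). HNF4A was at 109 ± 7.61 and 50.3 ± 15.6 and was not called (adjusted p = 0.184). HLF, a PAR bZIP factor of the circadian output, fell from 1508 and 1441 to 342, 618 and 336 (adjusted p = 0.00706). It was the only member called of 14 in the clock list, where 5.08% of all genes were called. CEBPA lost its call without 6 h replicate C (0.096), CEBPB without 6 h replicate A or C or 12 h replicate C (0.085, 0.14 and 0.057), and HLF without 6 h replicate A or C (0.07 and 0.079).

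**Figure D2:**
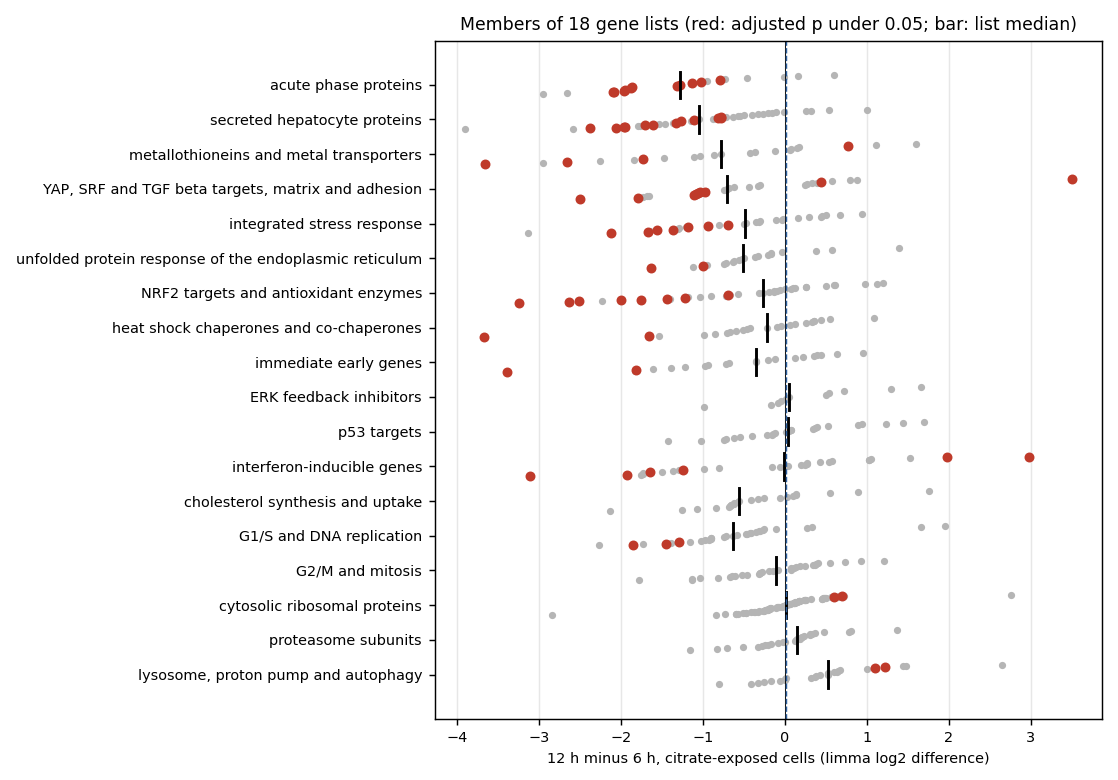
Log2 difference between 12 h and 6 h in citrate-exposed cells for each tested member of selected gene lists, with members at a limma adjusted p under 0.05 in red, all others in grey, list medians as black bars and the median of all genes as a dashed line at 0.014. Called members lie to the left in the acute phase, secreted, stress response and antioxidant lists, and to the right in the lysosome list, while the p53, ERK feedback, cholesterol, G2/M and proteasome lists hold none.

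Of the metal-handling genes, MT1G, MT1M and SLC30A10 fell and SLC30A1 rose, while 17 of 21 tested members were not called. Metallothioneins are small cysteine-rich proteins that bind zinc, copper and silver. MT1G had 1967 and 2149 normalized reads at 6 h and 416, 316 and 259 at 12 h, a 6.22-fold fall with a log2 difference of -2.66 ± 0.26 (SE, limma adjusted p = 4.29e-08). MT1M had 80.6 and 102 and then 21.8, 15.7 and 0 (adjusted p = 0.00118). The libraries of the times did not overlap in either gene. MT1E, at 59.5 and 45.5 and then 7.01, 17.5 and 21, and MT2A, at 77.0 and 48.8 on average, were not called (adjusted p = 0.177 and 0.333). SLC30A10, a manganese exporter, fell from 762 and 544 to 136, 249 and 210 (adjusted p = 0.00146). SLC30A1, the zinc exporter of the plasma membrane, rose from 732 and 698 to 1145, 1152 and 1361, a 1.71-fold rise that just passed the threshold (adjusted p = 0.0495). The median log2 difference of the metal list was -0.78. MT1G in NoNP cells had 1531 ± 87.3 and 195 ± 15.4 (SD, n = 3 each), and the steps differed by 0.30 ± 0.35 in log2 (adjusted p = 0.993). GPR39, a receptor that zinc activates, was at 0 in both 6 h libraries and at 14.8, 29.7 and 34.2 at 12 h (adjusted p = 0.00178), at least 14.4-fold higher against a floor of 3 reads over the 6 h group. Without 6 h replicate A the adjusted p was 0.054 for SLC30A10, and SLC30A1 was lost without any 1 citrate library (0.16 and 0.31 without 6 h replicates A and C, 0.072, 0.082 and 0.16 without 12 h replicates A, B and C), with no filter (0.0654) and after quantile normalization (0.0531).

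Of the NRF2 targets and antioxidant enzymes, 8 of 35 fell and none rose in the limma fit of all libraries, with a median of -0.27. With only the groups compared, or with 1 variance weight per group, 9 fell and 2 rose. HMOX1, heme oxygenase, had 907 and 864 normalized reads at 6 h and 110, 106 and 67.3 at 12 h, a 9.39-fold fall (limma adjusted p = 3.72e-07). ABCC3, an exporter of conjugates, had 224 and 280 and then 36.6, 53.3 and 40.8 (adjusted p = 4.94e-05). CAT, catalase, had 1855 and 1751 and then 593, 682 and 725 (adjusted p = 0.000143). These 3 genes had every 12 h library at less than the lower 6 h library, and the fall was steepest in HMOX1. GPX1, a glutathione peroxidase, went from 171 ± 35.7 to 42.3 ± 9.27 (adjusted p = 0.000573), TXNRD1, thioredoxin reductase, from 424 ± 59.3 to 131 ± 47.3 (0.00192), and GSR, glutathione reductase, from 3374 ± 219 to 2076 ± 109 (0.0079). GSTA1, a glutathione transferase, had 186 and 147 and then 20.3, 22.7 and 36.4 (adjusted p = 0.0421), and the list's last called member was GCLM (0.0494), the modifier subunit of glutathione synthesis. GPX2, an NRF2-dependent peroxidase, had 143 ± 8.35 and 333 ± 76.3 and was not called (limma adjusted p = 0.101). It passed with only the groups compared (0.0149) and with 1 variance weight per group (0.0107). In NoNP, HMOX1 had 611 ± 158 and 77.9 ± 1.59, CAT 1960 ± 252 and 659 ± 57.5 and TXNRD1 212 ± 31.9 and 176 ± 26.9 (SD, n = 3 each). The step of TXNRD1 was -1.48 ± 0.47 (SE) lower in citrate than in NoNP, which did not pass over all genes (adjusted p = 0.555). HMOX1, ABCC3, CAT and GPX1 kept their calls without each citrate library. TXNRD1 was lost without 6 h replicate C (0.061), GSR without 6 h replicate A or C (0.11 and 0.056), GSTA1 without any 1 citrate library (0.21 and 0.2 without 6 h replicates A and C, 0.1, 0.1 and 0.058 without 12 h replicates A, B and C), and GCLM likewise (0.27, 0.18, 0.092, 0.1 and 0.13). The 8 falls of the list became 5 without 6 h replicate A and 4 without 6 h replicate C.

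Targets of YAP, SRF and TGF beta, which respond to cell shape, serum and matrix, fell in 7 of 29 tested members and rose in 2, with a median of -0.71. In NoNP cells 14 members of the list were lower at 12 h and 0 higher, with a median of -0.97. CTGF (CCN2), the standard YAP target, had 3464 and 4296 normalized reads at 6 h and 737, 871 and 490 at 12 h, a log2 difference of -2.50 ± 0.33 (SE, limma adjusted p = 7.99e-06). THBS1, thrombospondin, had 2093 and 2562 and then 687, 619 and 695 (adjusted p = 0.000332). Replicate C was the higher 6 h library in both genes, with no overlap between times. VCL, vinculin, went from 719 ± 58.6 to 369 ± 58.5, TPM4, a tropomyosin, from 6560 ± 1518 to 3146 ± 663, and TGFBI from 2851 ± 582 to 1331 ± 149. ID1, a target of BMP signalling, fell from 6187 and 6099 to 3011, 3387 and 2141 (adjusted p = 0.0022). The members that rose were LAMA3, a laminin chain, from 0 and 4.64 to 27.3, 28.8 and 22.1 (adjusted p = 0.00428), and FN1, fibronectin, from 25517 and 23889 to 31539, 34248 and 34906 (adjusted p = 0.0299). NoNP cells had 2687 ± 457 and 233 ± 103 for CTGF and 1707 ± 221 and 216 ± 123 for THBS1, so that citrate libraries at 12 h lay above NoNP in both genes, and the steps differed by 1.09 ± 0.44 and 1.31 ± 0.42 (adjusted p = 0.834 and 0.555). CTGF and THBS1 kept their calls without each citrate library. TGFBI, VCL and TPM4 were lost without 6 h replicate C (0.071, 0.085 and 0.2), LAMA3 without 6 h replicate A (0.2), and FN1 without 6 h replicate A or C (0.096 and 0.29), without 12 h replicate B or C (0.081 and 0.09) and by edgeR (0.074). The 7 falls of the list became 2 without 6 h replicate C, and the 2 rises became 0 without 6 h replicate A.

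Among matrix proteases TIMP1 rose, MMP11 fell and 12 of 14 members were not called, where 5.08% of all genes were called. TIMP1, an inhibitor of matrix metalloproteinases, had 191 and 166 normalized reads at 6 h and 959, 597 and 587 at 12 h, a 4.0-fold rise (limma adjusted p = 0.000143). MMP11, stromelysin 3, had 49 and 42.7 and then 2.34, 2.62 and 7.73 (adjusted p = 0.00362). MMP3, stromelysin 1, had 61.3 and 97.4 and then 761, 713 and 295, which do not overlap but missed the threshold in limma (adjusted p = 0.0675) and passed it in edgeR (0.0361). The collagenase MMP1, at 59.5 and 78.8 and then 345, 281 and 181, and MMP10, at 10.5 and 6.49 and then 42.9, 46.3 and 9.93, were not called (adjusted p = 0.465 and 0.588). With only the groups compared, MMP3 and MMP1 passed in limma (0.000246 and 0.00208) and MMP10 did not (0.216). In NoNP, MMP1 was at 0 in all 3 libraries at 6 h and had 6.58 ± 5.7 at 12 h, and MMP3 had 6.01 ± 7.01 and 21.6 ± 7.81 (SD, n = 3 each). IL1RL1, the IL-33 receptor, was at 0 in all 6 NoNP libraries of these times, and citrate libraries had 40.3 and 11.1 and then 44.4, 41.1 and 64 (adjusted p = 0.589). MMP11 missed the threshold without 6 h replicate A (0.053).

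In bile acid and glucose metabolism some genes rose and others fell. Of 16 tested members 3 rose (IGFBP1, BAAT and PPARGC1A), 4 fell (CYP27A1, PCK2, SLC51A and PCK1) and 9 were not called. IGFBP1, an insulin-repressed binding protein of insulin-like growth factors, had 224 and 250 normalized reads at 6 h and 1963, 1539 and 1292 at 12 h, a 6.75-fold rise with a log2 difference of 2.73 ± 0.36 (SE, limma adjusted p = 8.51e-06). PPARGC1A, a coactivator of fasting metabolism, had 17.5 and 13 and then 74, 60.3 and 62.9 (adjusted p = 0.00704). PCK1, the cytosolic carboxykinase of gluconeogenesis, had 313 and 198 and then 20.3, 50.7 and 39.7 (adjusted p = 0.0124). Thus these fasting-linked genes went in opposite directions, each without overlap between times. BAAT, which conjugates bile acids, rose from 139 ± 9.64 to 384 ± 24.4, and CYP27A1, a sterol hydroxylase, fell from 1366 and 1702 to 550, 612 and 650 (adjusted p = 2.06e-05). SLC51A, a bile acid exporter subunit, fell from 45.5 and 49.2 to 3.12, 0.874 and 4.42. IGFBP1 in NoNP had 124 ± 20.7 and 1393 ± 284, and PCK1 37.4 ± 9.98 and 19.4 ± 8.14, with 316 ± 99.6 (SD, n = 2) and 12 ± 5.31 (SD, n = 3) in PEG. IGFBP1 and CYP27A1 kept their calls without each citrate library. BAAT and PPARGC1A were lost without 6 h replicate C (0.062 and 0.14), PCK1 without 6 h replicate A or C or 12 h replicate A (0.15, 0.07 and 0.063), and SLC51A without 6 h replicate A or C or 12 h replicate B (0.08, 0.12 and 0.057). The 4 falls of the list became 2 without either 6 h library, and the 3 rises became 1 without 6 h replicate C.

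Further metabolic genes were among the largest falls. AGXT, the peroxisomal enzyme that detoxifies glyoxylate, had 80.6 and 65.9 normalized reads at 6 h and 6.24, 0.874 and 7.73 at 12 h (limma adjusted p = 0.00404). METTL7A, a membrane methyltransferase of lipid droplets, had 57.8 and 48.2 and then 6.24, 0.874 and 0 (adjusted p = 0.000726). The 12 h values of both genes were near the level that a count of 0 allows, so their folds are uncertain. AKR1D1, the steroid reductase of bile acid synthesis, had 112 and 76.1 and then 7.01, 26.2 and 12.1 (adjusted p = 0.0494), and ACSM5, a medium-chain acyl-CoA synthetase, 84.1 and 73.3 and then 21, 14 and 4.42 (adjusted p = 0.00228). In the xenobiotic list EPHX1, SULT1A1 and GSTA1 fell and 14 of 17 members were not called. EPHX1, an epoxide hydrolase, went from 1278 ± 44.7 to 610 ± 72.4 and SULT1A1, a sulfotransferase, from 350 ± 12.5 to 165 ± 9.45. CYP3A5 and CYP3A7, cytochromes of drug metabolism, had 36.9 ± 2.32 and 50.9 ± 12.7 and 19 ± 2.05 and 32.8 ± 15.4, neither called (adjusted p = 0.647 and 0.478). METTL7A and ACSM5 kept their calls without each citrate library. AGXT, EPHX1 and SULT1A1 were lost without 6 h replicate A (0.058, 0.1 and 0.071) or C (0.052, 0.11 and 0.066), EPHX1 without 12 h replicate C (0.058), and AKR1D1 without 6 h replicates A and C (0.26 and 0.2) and 12 h replicates A and C (0.16 and 0.12). The 3 falls of the xenobiotic list became 0 without either 6 h library and 1 without 12 h replicate C.

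Interferon-inducible genes divided, with 2 of 28 rising, 4 falling and a median of -0.01, where 2.45% of all genes rose and 2.64% fell. GBP1, a guanylate-binding GTPase, had 277 and 244 normalized reads at 6 h and 21.8, 29.7 and 38.6 at 12 h, an 8.66-fold fall (limma adjusted p = 3.67e-07). OAS3, a synthetase that activates RNase L, had 8.76 and 7.42 and then 74.8, 55 and 85, an 8.85-fold rise (adjusted p = 0.000361). OAS1 of the same family rose from 19.3 and 13 to 92.7, 55.9 and 54.1 (adjusted p = 0.00267). The other members that fell were APOL1, APOL6 and PSMB9, a subunit of the immunoproteasome, with APOL1 at 151 ± 2.14 and 49.6 ± 17.2 and PSMB9 at 117 ± 15.6 and 30.8 ± 9.99. GBP1 in NoNP had 455 ± 33.1 and 21 ± 8.32, and OAS3 25.1 ± 11.1 and 40.9 ± 19.6 (SD, n = 3 each). The OAS3 step was 2.32 ± 0.69 (SE) larger in citrate than in NoNP, which did not pass over all genes (adjusted p = 0.498). GBP1 and OAS3 kept their calls without each citrate library. OAS1, APOL1, APOL6 and PSMB9 were lost without 6 h replicate C (0.096, 0.066, 0.11 and 0.051), APOL1, APOL6 and PSMB9 without 6 h replicate A (0.056, 0.2 and 0.08), and APOL6 without 12 h replicate C (0.14), so that 1 of the 4 falls was left without either 6 h library.

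Among genes of G1/S and DNA replication MCM7, MCM5 and CCNE1 fell, 3 of 31 tested members where 2.64% of all genes fell, none rose and the median was -0.64. MCM7, a subunit of the replicative helicase, had 522 and 623 normalized reads at 6 h and 212, 216 and 274 at 12 h (limma adjusted p = 0.0119), and MCM5, another subunit, 317 and 416 and then 152, 138 and 111 (adjusted p = 0.0196). Neither gene overlapped between times. None of 32 genes of G2/M was called in the limma fit of all libraries. MKI67, a marker of cycling cells, had 426 and 840 and then 228, 262 and 340 (adjusted p = 0.0854). It passed narrowly by edgeR (0.0499), and in limma with voom weights (0.0391) and with only the groups compared (0.0281). The G2/M list held 1, 2 and 2 falls in these settings. Replicates differed most in MKI67 at 6 h. MCM7 and MCM5 were lost without 6 h replicate A (0.056 and 0.064) or C (0.19 and 0.27), MCM5 without 12 h replicate C (0.085), and CCNE1 without 6 h replicate A (0.29) and 12 h replicates A and B (0.089 and 0.077), so that 0 members were called without 6 h replicate A and 1 without 6 h replicate C. CCNE1 was also lost with only the groups compared (0.061).

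Housekeeping lists were counted beside the 5.08% of all genes called. Cytosolic ribosomal proteins had 2 of 72 members called, both higher, RPS27 from 15783 ± 291 to 25880 ± 4604 and RPL10 from 6935 ± 973 to 10542 ± 1875 (limma adjusted p = 0.0335 and 0.0431), and a median of 0.01. The respiratory chain had 1 of 48 higher (NDUFA9) and 1 lower (ATP5H). NDUFA9, a subunit of complex I, went from 378 and 366 to 576, 598 and 595 (adjusted p = 0.0386) and ATP5H, of ATP synthase, from 751 and 817 to 443, 397 and 363 (adjusted p = 0.0079). UQCRC2, a core subunit of complex III, had 1019 ± 183 and 838 ± 68.5 and was not called (adjusted p = 0.541). In the limma fit of all libraries, none was called of 28 proteasome subunits, 18 aminoacyl-tRNA synthetases, 31 genes of ribosome biogenesis or 23 genes of cholesterol synthesis and uptake. With voom weights 2 cholesterol genes fell and 1 gene of ribosome biogenesis rose. With only the groups compared, 2 cholesterol genes and 1 gene of ribosome biogenesis rose. RPS27, RPL10 and NDUFA9 were lost without 6 h replicate A (0.14, 0.07 and 0.14), 6 h replicate C (0.24, 0.45 and 0.26), 12 h replicate A (0.12, 0.054 and 0.066) or 12 h replicate B (0.11, 0.2 and 0.09), NDUFA9 also without 12 h replicate C (0.092), with no filter (0.0642) and with only the groups compared (0.085), RPL10 by edgeR (0.0535) and with only the groups compared (0.0774), and ATP5H without 6 h replicates A and C (0.052 and 0.13).

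The lysosome genes CTSB and NPC1 rose, 2 of 27 tested members where 2.45% of all genes rose. No member of their list fell, where 2.64% of all genes did. Of 27 tested members 21 had positive differences, with a median of 0.52 against 0.014 over all genes, and 25 were not called. CTSB, cathepsin B, had 1806 and 1781 normalized reads at 6 h and 4492, 3989 and 3196 at 12 h (limma adjusted p = 0.00137). NPC1, which exports cholesterol from lysosomes, had 340 and 239 and then 504, 712 and 831 (adjusted p = 0.00672). LAMP2, a lysosomal membrane protein, had 191 and 63.1 and then 778, 673 and 634, but missed the threshold (limma adjusted p = 0.0995). It passed with only the groups compared (0.000265) and with 1 variance weight per group (0.0064), so its call depends on how the spread is estimated. In NoNP cells 5 members were higher at 12 h, with a list median of 0.69, and CTSB had 2831 ± 275 and 5048 ± 583 (SD, n = 3 each). CTSB kept its call without each citrate library, and NPC1 lost it without 6 h replicate C (0.22).

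The largest rises came from genes of several functions. NDRG4, a cytoplasmic protein of the NDRG family, had 45.5 and 39.9 normalized reads at 6 h and 380, 363 and 378 at 12 h, an 8.75-fold rise with a log2 difference of 3.10 ± 0.35 (SE, limma adjusted p = 3.67e-07). ZNF114, a KRAB zinc finger protein, had 43.8 and 57.5 and then 583, 310 and 490 (adjusted p = 2.66e-05). AREG, amphiregulin, a ligand of the EGF receptor, had 5.25 and 28.8 and then 116, 144 and 107 (adjusted p = 0.000937). The libraries of a time lay close together in NDRG4 and further apart in AREG at 6 h, where replicate C was the higher. S100A2, a calcium-binding protein, had 7 and 23.2 and then 224, 135 and 85, and IDE, the insulin-degrading enzyme, 7 and 4.64 and then 36.6, 64.7 and 56.3 (adjusted p = 0.00118 and 0.000143). Genes of the cell surface were NRP1, a co-receptor of VEGF and semaphorins, at 50.8 and 57.5 and then 253, 285 and 395, and ESAM, a junction protein, at 24.5 and 47.3 and then 221, 218 and 171 (adjusted p = 2.66e-05 and 4.94e-05). CD9, a tetraspanin, rose from 8.55 ± 0.29 to 60.0 ± 24.9, and CD3D, a T cell receptor subunit, from 18.2 ± 10.9 to 98.2 ± 21.8. The summed leukocyte markers beside CD3D are those given above. TNFSF15, a TNF family cytokine, went from 31.5 and 7.42 to 73.3, 112 and 80.6 (adjusted p = 0.00135), and SLC2A3, the GLUT3 glucose transporter, from 151 and 169 to 441, 445 and 442 (adjusted p = 0.0028). DSP, desmoplakin, rose from 958 ± 215 to 1702 ± 215 (adjusted p = 0.0108). TMEM27, with 19.3 and 0 and then 90.4, 57.7 and 36.4, was called by limma (0.0181) and not by edgeR (0.084).

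NDRG4, ZNF114, IDE, NRP1 and ESAM kept their calls without each citrate library. S100A2, AREG, CD9, CD3D, SLC2A3 and DSP were lost without 6 h replicate A (0.074, 0.1, 0.076, 0.13, 0.051 and 0.23), CD9, TNFSF15 and TMEM27 without 6 h replicate C (0.12, 0.21 and 0.6), CD9 and TMEM27 without 12 h replicate A (0.0502 and 0.0652), TMEM27 without 12 h replicate B (0.0502), and DSP without 12 h replicate C (0.058). In NoNP, NDRG4 had 80.1 ± 18.1 and 385 ± 41.1, ZNF114 52.7 ± 8.22 and 1110 ± 214, and AREG 26.8 ± 17.3 and 44 ± 13.1 (SD, n = 3 each). The steps differed by 0.83 ± 0.46, -1.24 ± 0.59 and 2.33 ± 0.79 in log2, none past the threshold (adjusted p = 0.933, 0.923 and 0.627). Several families above hold near-identical copies (MT1G, MT1M and MT1E, HSPA1B and its twin, GSTA1 and GSTA2, C4A and C4B, ORM1 and ORM2, the OAS genes), and detector reads may be shared within them. The sources used here do not give how probes were combined to genes.

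The citrate step was then set against the step of cells given no particles, with no library in common. Genes that fell with citrate mostly fell in NoNP too. Of the 246 that fell, 241 had a negative difference in NoNP and 185 were called lower there, and of the 228 that rose, 214 had a positive difference and 107 were called higher, where 11.8% of all genes were called between NoNP times in either direction. Together 292 of the 474 citrate genes were called in the same direction in NoNP, which is 61.6% of the citrate genes and 26.6% of the 1097 NoNP genes, and 0 were called in the opposite direction. The median log2 difference of the genes that rose was 1.35 in citrate and 0.87 in NoNP, and of those that fell -1.46 and -1.28, where the citrate values chose the genes. Beside PEG the picture was close, with 290 of 474 called in the same direction (61.2%, or 31.7% of the 916 PEG genes, which were 9.82% of all genes). Pearson's r across the 9324 genes was 0.522 between the citrate and NoNP steps and 0.514 between the citrate and PEG steps, and genes are not independent replicates.

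Tested directly, the citrate step differed from the NoNP step in 1 gene, ETNPPL (0.0107% of genes), and from the PEG step in none (0.0%). ETNPPL codes for a lyase that breaks down phosphoethanolamine in liver and brain. It had 138 and 101 normalized reads in citrate at 6 h and 70.1, 62.9 and 45.3 at 12 h, and in NoNP it had 146, 99.1 and 92.2 at 6 h and 724, 404 and 348 at 12 h. The citrate libraries fell below their 6 h level while all NoNP libraries at 12 h lay above every other library of these groups, although the citrate difference alone was not called (limma adjusted p = 0.161). The log2 difference of the steps was -3.08 ± 0.54 (SE, limma adjusted p = 0.0235), and in PEG ETNPPL had 75.9 ± 20.7 (SD, n = 2) and 81.5 ± 14.0 (SD, n = 3). At an unadjusted limma p under 0.05 there were 493 genes for the citrate and NoNP steps (5.29%) and 427 for the citrate and PEG steps (4.58%). With no difference in any gene, a share of about 0.05 would pass, so both counts were near that share. edgeR called 1 and 0 genes, with 559 and 445 genes at an unadjusted p under 0.05 against NoNP and PEG. Data were simulated with a common mean per gene in every group, except 100 genes changed 2-fold and 100 changed 4-fold in citrate at 12 h. There limma recovered 3% of steps that differed 2-fold and 32% of those that differed 4-fold. More genes differed between the real times, so these shares are a rough guide. Many 2-fold differences of steps may have been missed here. The ETNPPL difference of steps was not called without NoNP 6 h replicate B or C (0.119 and 0.142), NoNP 12 h replicate A (0.196), citrate 6 h replicate A or C (0.184 and 0.07) or citrate 12 h replicate B or C (0.0626 and 0.0724).

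Other genes with a small p did not pass the threshold and are given as values. ACTN1, alpha-actinin 1, had 3142 and 3163 normalized reads in citrate at 6 h and 3840, 4292 and 3340 at 12 h, and in NoNP 5552 ± 274 and 3191 ± 449 (difference of steps 1.08 ± 0.22, SE, limma adjusted p = 0.116). NOS3, the endothelial nitric oxide synthase, had 15.8 and 6.49 and then 24.9, 24.5 and 33.1, and in NoNP 11.1 ± 2.02 and 1.73 ± 0.60 (adjusted p = 0.147). Both genes had citrate means that were higher at 12 h and NoNP means that were lower. GPR39 had 7.62 ± 4.46 and 3.45 ± 2.09 in NoNP (adjusted p = 0.198), and TMEM37 fell in citrate from 47.3 and 30.6 to 5.46, 14 and 2.21 (adjusted p = 0.0221) where NoNP had 27.9 ± 9.98 and 58.4 ± 7.88 (difference of steps -3.62 ± 0.91, adjusted p = 0.35). NADK2, a mitochondrial NAD kinase, was at 541 and 450 and then 440, 384 and 365 in citrate, and at 537 ± 73.3 and 1295 ± 266 in NoNP (adjusted p = 0.35). Within citrate, TMEM37 was lost without 6 h replicates A and C (0.19 and 0.1) and 12 h replicates A and C (0.052 and 0.14). Against PEG, the smallest p belonged to DHX16, an RNA helicase, at 146 and 316 normalized reads on average in citrate and 214 and 134 in PEG (adjusted p = 0.997).

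**Figure D3:**
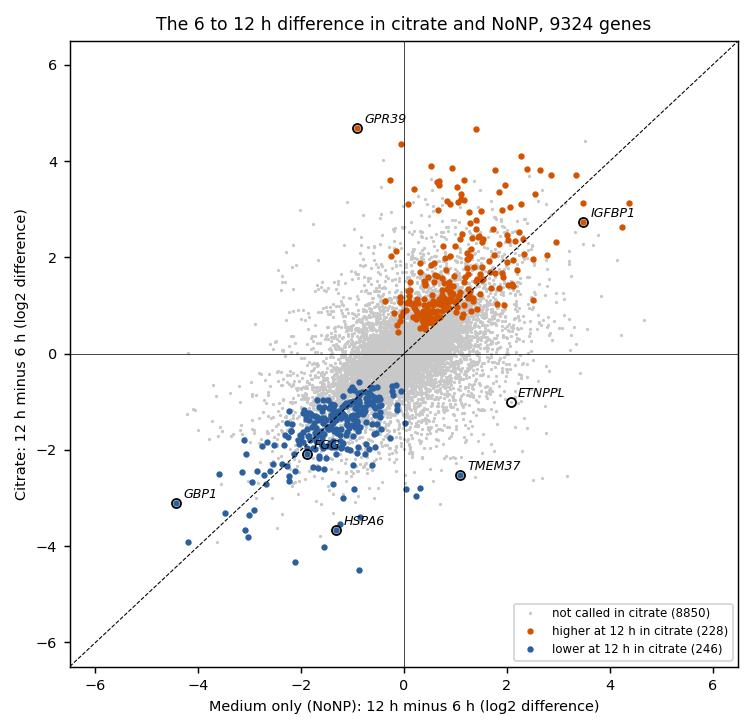
Log2 difference between 12 h and 6 h in medium-only cells (x axis) and citrate-exposed cells (y axis) for 9324 genes, with genes called in citrate in orange (228 higher) and blue (246 lower) and all others in grey. Most called genes share the sign of the NoNP difference, while ETNPPL, TMEM37 and GPR39 lie in quadrants of opposite sign, of which ETNPPL alone passed the test of the difference of steps.

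Values at 24 h in citrate (n = 3) show which levels of 12 h lasted, as a description. HSPA6 and FOSB were at 0 in all 3 libraries at 24 h, and HMOX1 (106, 111 and 40.6) and FGG (2410, 1919 and 2444) lay near their 12 h level. MT1G had 3070, 3153 and 3269 normalized reads, above its 6 h libraries, and ABCC3 (231, 245 and 258), ICAM1 (300, 269 and 327) and CAT (1324, 1485 and 1622) were back within or near their 6 h range. The low values of these 4 genes were thus those of 12 h. TIMP1 went on to 3488, 3454 and 2903, CTSB to 7245, 7375 and 7300, and CD3D to 610, 647 and 555. IGFBP1 had 749, 744 and 679, between its 6 h and 12 h levels, and BAAT (110, 89.6 and 76.3) lay below both. CST2, a secreted cystatin, had 13.4 ± 3.27 at 6 h and 26.3 ± 21.8 at 12 h without a call (limma adjusted p = 0.691), and 583, 664 and 2576 at 24 h. C6orf132 had 5.25 and 4.64 at 6 h, 33.5, 14.9 and 21 at 12 h (adjusted p = 0.0637) and 37.5, 53.2 and 57.8 at 24 h.

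**Figure D4:**
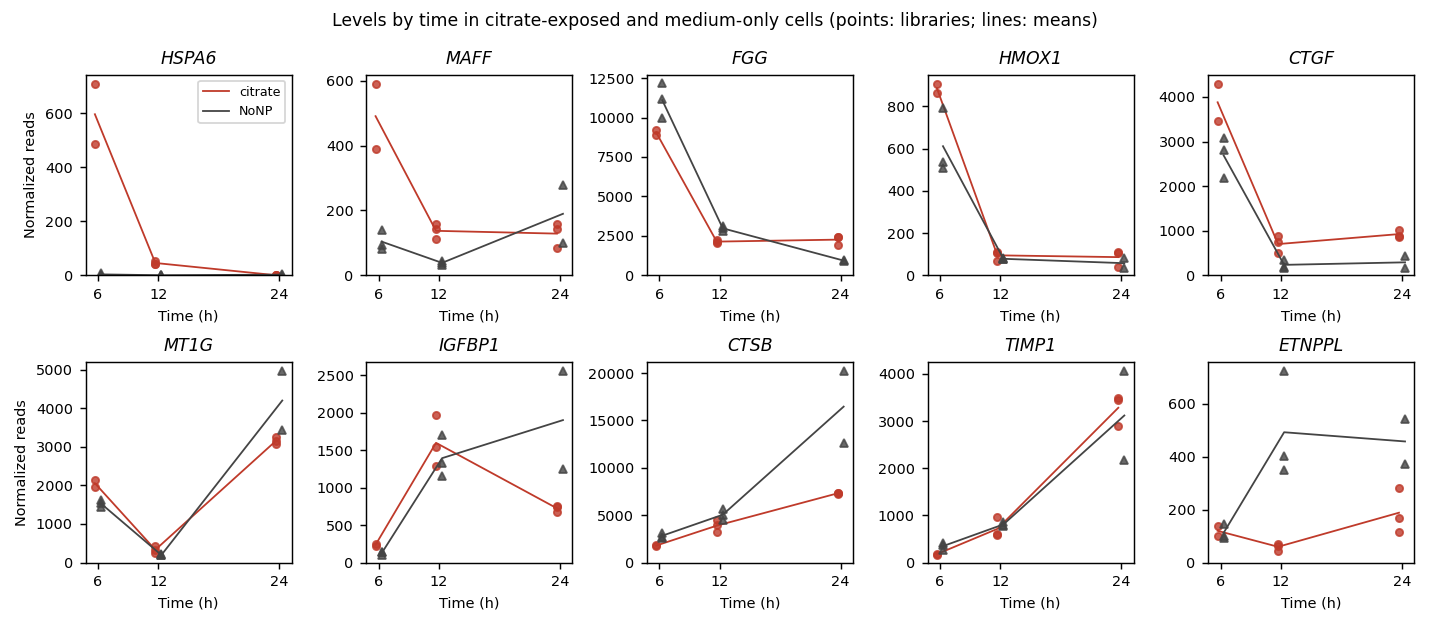
Normalized reads (linear axes from 0) at 6, 12 and 24 h for 10 genes, with circles and red lines for citrate libraries and their means and triangles and black lines for NoNP libraries and their means (n = 2 at 6 h in citrate and at 24 h in NoNP, otherwise 3). HSPA6 and MAFF at 6 h lie above NoNP in citrate, MT1G is low at 12 h in both exposures, and ETNPPL is higher in NoNP than in citrate at 12 h. NoNP replicate B at 24 h is a library called outlying above.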

How the data were processed

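The assay was TempO-Seq on lysates of HepG2 cells, per the labels. The deposited table gives a normalized signal value for each of 13133 gene symbols in 32 libraries, and each deposited signal value could be turned back into whole reads with a single factor for its library (100% of values within 0.01 reads). All columns matched a label. The sources used here do not give the aligner, the genome build or the combination of probes.

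The 9324 genes averaging 5 or more over the 32 libraries were tested, and 3809 were left out. limma 3.58.1 (R 4.3.3, intensity trend, robust) was fitted on log2(value + 1) to 12 group means, with 20 residual degrees of freedom. Fold changes are ratios of mean values, and log2 differences are on the log2(value + 1) scale, which understates low genes. Benjamini-Hochberg adjustment ran over all tested genes (threshold 0.05). edgeR 4.0.16 quasi-likelihood tests on the recovered reads were an alternative. Time steps were compared as contrasts in the same fit.

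In the same simulated data limma recovered 13% of 2-fold and 48% of 4-fold changes of the citrate comparison, with 5 of 9124 unchanged genes called. The edgeR figures were 14%, 44% and 2 genes. Named genes were the 15 largest rises and falls past the threshold without overlap and with a mean of at least 50 in the higher group, up to 6 members with the smallest p per list, the 10 smallest p for each difference of steps, and genes that earlier results name. A2M, AFP, C4A, DDIT3, FN1, GCLM, HPX, HSP90AA1, ITIH4, MT2A, ORM1, ORM2, SERPINA1, SLC7A5 and TTR fall outside this rule and were chosen after their values were seen. Members and lists were chosen with earlier results of these data known. Alternatives were the pseudocount (5), the filter (none, 20), equal totals, quantile normalization, voom, the replicate letter as a block, only the groups compared, variance weights per group, and leaving out libraries. Promoter motifs were searched in the RefSeq promoter table by gene symbol. Some results under the naming rule are not reported here.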

Additional observations from a re-analysis of the deposited data

Results flagged for a closer look

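ETNPPL, a liver lyase of phosphoethanolamine, was the gene whose 6 to 12 h difference was not the same in citrate-exposed and medium-only cells by the test of the difference itself. It went from 138 and 101 to 70.1, 62.9 and 45.3 normalized reads with citrate and from 146, 99.1 and 92.2 to 724, 404 and 348 in NoNP, a log2 difference of steps of -3.08 (limma adjusted p = 0.0235). The libraries of the exposures overlapped at 6 h and did not at 12 h. The test passed in limma and edgeR with all libraries, and not in 7 of the 11 fits that left out 1 library.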

How the results depend on the processing

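The 474 calls between 6 h and 12 h in citrate became 155 to 389 with 1 citrate library left out, 788 with 1 variance weight per group and 1001 without bPEI 6 h replicate B and NoNP 24 h replicate B. With a 6 h library left out, the lone one is assumed to vary like the other groups. Under every other alternative run the count was within 1.5 times, at 470 with the replicate block, 473 by edgeR and 406 to 580 elsewhere. Correlations of deviations from the group means were -0.076 and -0.063 for same-letter libraries over 2 pairs. The 2 libraries at 6 h deviate from their mean by mirrored amounts. The 2 values are therefore not independent and cannot exclude pairing by replicate letter. For the citrate step against the NoNP step, the count of 1 became 2 with equal library totals, 3 after quantile normalization, 2 with voom weights, 4 with only the groups compared, 8 with variance weights, 5 without both outlying libraries and 0 to 2 with 1 library left out. Against the PEG step it was 0 in every alternative run. Among the genes named, 104 were called and 36 of these kept their call in all 16 alternatives. Apart from left-out libraries, voom weights ended the calls of AREG (adjusted p = 0.09), CD9 (0.134), HPX (0.0574), LAMA3 (0.117), OAS1 (0.069), PPARGC1A (0.0607), TMEM27 (0.136) and TMEM37 (0.0899). Using only the groups compared ended those of FN1 (0.115), NDUFA9 (0.085), HPX (0.0811), RPL10 (0.0774), TMEM37 (0.0731), CCNE1 (0.061) and SLC7A5 (0.0603). No filter ended those of SLC7A5 (0.0694), SLC30A1 (0.0654), AKR1D1 (0.0653), NDUFA9 (0.0642), GCLM (0.0553) and GSTA1 (0.0522). Quantile normalization ended those of ALB (1.0), SLC7A5 (0.0766), GCLM (0.0656), APOB (0.0561) and SLC30A1 (0.0531). By edgeR those of TMEM27 (0.0837), HPX (0.0778), FN1 (0.0743), RPL10 (0.0535) and SLC7A5 (0.0516) ended, with equal library totals those of SLC7A5 (0.0722), GCLM (0.0632), AKR1D1 (0.0596) and GSTA1 (0.053), and with the replicate block those of SLC7A5 (0.0645) and SLC30A1 (0.0575). Calls were also gained among named genes that were not called. Using only the groups compared, limma called MMP3 (0.000246), LAMP2 (0.000265), MMP1 (0.00208), GPX2 (0.0149), MKI67 (0.0281) and KLF6 (0.033). With 1 variance weight per group it called LAMP2 (0.0064), GPX2 (0.0107), KLF6 (0.0226), MKI67 (0.031), C6orf132 (0.0463) and SERPINA1 (0.0481). By edgeR MMP3 (0.0361), KLF6 (0.0483) and MKI67 (0.0499) passed, and with voom weights KLF6 (0.0205), MMP3 (0.0387) and MKI67 (0.0391). A mean of at least 20 added C6orf132 (0.0478) and MMP3 (0.0489), and a pseudocount of 5 added MMP3 (0.0163). Without both outlying libraries LAMP2 (4.49e-06), GPX2 (0.00388), MKI67 (0.00967), KLF6 (0.0169), SERPINA1 (0.0262), HSPH1 (0.0304), C6orf132 (0.0424) and BAG3 (0.0477) passed. Signs turned without a call in AFP (-0.54 to 0.13 in log2) and LYZ (-0.24 to 0.018) over left-out libraries. Depth limits genes under about 5 normalized reads, most of all in 6 h replicate A, and 2 libraries at 6 h limit every value here. The cause of these differences was not tested.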
